A study of Homo sapiens with 4 samples.

Results

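Ephrins and Eph receptors are membrane proteins through which neighboring cells signal on contact. Of their genes, 10 were followed here, by symbol, in the mRNA profiles of BEAS2B cells depleted of the RNA-binding protein QKI: the ligand genes *EFNA1*, *EFNA4*, *EFNA5*, *EFNB1* and *EFNB2*, and the receptor genes *EPHA2*, *EPHA4*, *EPHB2*, *EPHB3* and *EPHB4*. They are 10 of the 22 ephrin and Eph genes listed, among 16708 genes listed in at least 1 library. The 10 were chosen by the RPKM of these same libraries, since *EFNA1* mRNA was known to be higher in the QKI-knockdown libraries, and the question was whether other ligands or receptors matched that rise. The comparison of QKI-knockdown with control cells therefore served to choose these genes, and for them it is described without a test.

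BEAS2B is a virus-transformed line of human bronchial epithelial cells. Total RNA was sequenced from control cells, which stably expressed an shRNA against luciferase (sh-Luc) from a retrovirus, and from QKI-knockdown cells, which expressed a single QKI shRNA (sh-Q3) in the same way. Each group has 2 libraries, numbered replicate 1 and replicate 2, and nothing in the sources used here says whether they came from separate cultures. The spread between them may therefore be technical. The shRNA is the only difference between the groups that the labels and methods give, so what follows from QKI cannot be told apart from any other effect of this shRNA. Its target, with all 19 bases in capitals, lies in a coding exon of *QKI* on the plus strand of hg19 at chr6:163956115-163956133. None of the 138 annotated transcripts of the 22 ephrin and Eph genes holds this whole sequence. Shorter or inexact matches were not searched, so an effect of the shRNA through them was not examined.
sh-Q3 target: GAAGAGAGCAGTTGAAGAA

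Class A ephrins are tethered to the membrane by a glycolipid anchor and mostly bind EphA receptors. Class B ephrins span the membrane and mostly bind EphB receptors, and *EPHA4* is known to accept ligands of both classes. The receptors are tyrosine kinases, and signals run into the receptor-bearing cell and back into the ligand-bearing cell. In epithelia the system is known for its part in cell sorting, boundary formation and adhesion, with *EFNA1* and *EPHA2* as a prominent pair. QKI is a STAR-family protein that binds ACUAAC or ACUAAU in RNA and acts on splicing and on mRNA stability.

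The deposited values are RPKM, read numbers scaled by gene length and by library total, computed by the authors for each library. The whole reads behind them were recovered, together with the totals by which the authors divided, between 20052951 and 34862008 reads per library. *QKI* mRNA was at 8.94 and 14.6 RPKM in control libraries 1 and 2, and at 2.52 and 3.85 RPKM in QKI-knockdown libraries 1 and 2, so the groups did not overlap. Its log2 change was -1.72 (SE 0.38; limma adjusted p = 1.00, and 3.16e-33 once the replicate number entered as a block). The block treats same-numbered libraries as pairs, which the labels do not state, so the latter p does not measure the spread between cultures. The larger differences ran between the replicate numbers, not the groups: the log2 difference over 11829 tested genes had an SD of 0.81 between the control libraries and 0.66 between the knockdown libraries, against 0.20 and 0.21 between knockdown and control within replicate 1 and replicate 2. Changes are therefore given within each number. Of 10 epithelial markers, 6 reached 0.5 RPKM in at least 1 library, with *KRT8* between 91.5 and 248 RPKM. *KRT5* and *KRT14* were not listed, and *CDH1*, which encodes E-cadherin, stayed at or below 0.181 RPKM. Of the endothelial and of the ciliated and secretory airway markers, 0 reached 0.5 RPKM, and of the leukocyte (*CD68*, *CD14*), fibroblast (*COL1A1*, *PDGFRB*) and neuron (*SYP*, *SNAP25*) markers 2 each did. *CD68* was between 12.2 and 17.3 RPKM, *CD14* between 0.794 and 5.22, *COL1A1* between 18.6 and 54.1 and *PDGFRB* between 7.11 and 11.8 RPKM. *SYP* and *SNAP25* stayed at or below 0.539 RPKM, and the epithelial marker *EPCAM* was between 0.619 and 0.811 RPKM.

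Among the 10 genes, mRNA of the receptor *EPHA2* was the most abundant in control cells, at 26.7 ± 7.91 RPKM (mean ± SD, n = 2 libraries, as for the values that follow). *EPHB4* was at 14.0 ± 3.83, *EFNA1* at 12.5 ± 5.95 and *EPHB2* at 12.5 ± 5.07 RPKM. These 3 overlapped between the libraries, whereas the lower *EPHA2* value, 21.1 RPKM, lay above the highest of theirs, 16.7 RPKM. *EFNA4* followed at 7.26 ± 0.288 RPKM, below *EPHB2* in both libraries. *EFNB1* at 2.18 ± 1.20, *EFNB2* at 1.55 ± 0.250 RPKM and *EFNA5* with 1.46 and 1.53 RPKM overlapped one another. *EPHA4* was at 0.463 ± 0.133 and *EPHB3* at 0.273 ± 0.128 RPKM, the lowest of the 10. A comparison of RPKM between genes rests on the gene lengths the authors divided by. For *EFNA1* this length was 2.02 times the union of its annotated exons, for *EFNA4* 2.15 times, for *EPHA2* 1.12 times and for *EPHB2* 0.697 times.

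**Figure D1:**
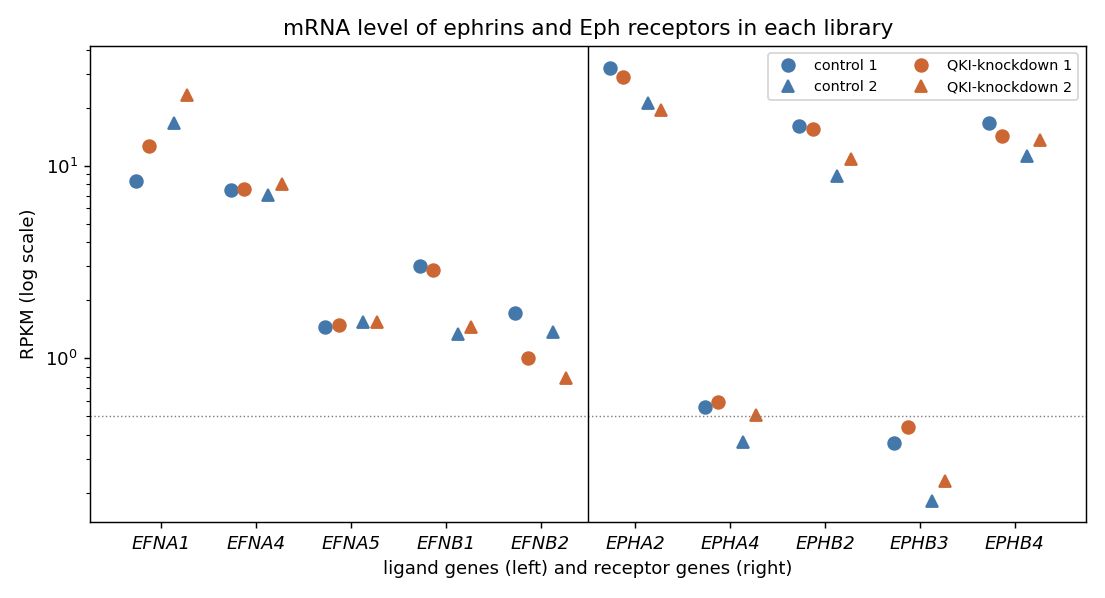
RPKM of the 10 genes (y axis, log scale; dotted line at 0.5 RPKM) in each of the 4 libraries, with control in blue, QKI-knockdown in orange, replicate 1 as circles and replicate 2 as triangles. *EFNA1* is higher and *EFNB2* lower in the knockdown library of each number, at 12.7 against 8.32 and 1.01 against 1.73 RPKM in replicate 1.

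Because QKI binds RNA, the mRNA strand of the annotated 3' untranslated region of the canonical transcript of each gene was searched for ACTAAC and ACTAAT, its binding motifs in DNA letters, with overlapping matches allowed. Of the 10 genes, *EFNB2* and *EPHA4* held 1 match each and *EPHB2* held 2. In regions of the same length, counted from the stop codon in the tested genes whose region is at least as long, 65.8%, 66.3% and 91.8% held at least 1 match. *EFNA1*, with a region of 832 bases, held 0, and 22.4% of tested genes held at least 1 match in a region of that length. *EFNA5*, the longest region without a match at 4361 bases, compares with 75.1%. The matches are shown with 10 bases on each side because there the searched regions carry letters that QKI is known to bind. Other parts of these mRNAs and other letters were not searched. Capitals mark the motif, and the letters run 5′ to 3′ on the mRNA strand of hg19, at chr13:107143817-107143842 (minus) for *EFNB2*, chr2:222284431-222284456 (minus) for *EPHA4*, and chr1:23243138-23243163 and chr1:23243579-23243604 (plus) for *EPHB2*.
EFNB2: aaagatttttACTAATatatatttta
EPHA4: tagctgtcacACTAACcttaataaga
EPHB2 site 1: ctgcctggttACTAATcctttcctgg
EPHB2 site 2: atggctgtttACTAACcagcagtgcc
A match is a description of these letters. The values hold no measure of binding, and no match in this window says nothing of QKI elsewhere in the gene.

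*EFNA1* encodes ephrin-A1, a glycolipid-anchored ligand of EphA receptors, and lies on the plus strand of chromosome 1 from 155100352 to 155107375 (hg19). In replicate 1 its mRNA was at 8.32 RPKM in control cells and at 12.7 RPKM after knockdown, and in replicate 2 at 16.7 and 23.2 RPKM. The groups overlap, because control library 2 lies above knockdown library 1, but within each number the knockdown library was higher. The RPKM ratio of knockdown to control was 1.53 within replicate 1 (95% exact binomial interval 1.39 to 1.68, from 731 and 1145 reads) and 1.39 within replicate 2 (1.32 to 1.46, from 2546 and 3553 reads). Such intervals cover counting error only, and they are too narrow where the authors' counting let a read count more than once: over all genes the recovered reads sum to between 1.35 and 1.53 times the totals. On the log2(RPKM + 0.5) scale, which understates changes of low genes, the change was 0.58 and 0.46, with a mean of 0.52. By this mean *EFNA1* ranked 60 from the top among the 11829 tested genes, and 20 genes, *EFNA1* included, were higher by at least as much in both numbers.

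The listed neighbors of *EFNA1* on the chromosome differed less between the groups. *SLC50A1*, which encodes a sugar transporter and starts 445 bases after *EFNA1* ends, was at 10.6 and 11.2 RPKM in control and knockdown library 1 and at 19.4 and 21.1 RPKM in control and knockdown library 2, log2 differences of 0.08 and 0.12. *EFNA3*, the nearest listed gene on the other side, had log2 differences of 0.10 and 0.16.

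None of the other class A ligands followed *EFNA1* by a like amount. *EFNA4*, which encodes ephrin-A4, was at 7.46 and 7.06 RPKM in control libraries 1 and 2 and at 7.55 and 8.07 RPKM in knockdown libraries 1 and 2. Both knockdown libraries thus lay above both controls, as for 5.71% of all tested genes, but the ratio was 1.01 within replicate 1 (0.880 to 1.16) and 1.14 within replicate 2 (1.03 to 1.27). *EFNA5*, which encodes ephrin-A5, was the steadiest of the 10, at 1.46 and 1.53 RPKM in control libraries 1 and 2 and at 1.49 and 1.55 RPKM in knockdown libraries 1 and 2. Its ratios were 1.02 (0.841 to 1.24) and 1.01 (0.873 to 1.17). *EFNA4* shares 189 bases of exon with the readthrough gene *EFNA4-EFNA3*, which was at 2.78, 1.08, 2.52 and 1.40 RPKM in control libraries 1 and 2 and knockdown libraries 1 and 2, and the sources used here do not state how reads were split between them.

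Neither class B ligand of the 10 was higher with *EFNA1* in both numbers, and *EFNB2* differed in the opposite direction. *EFNB2*, which encodes ephrin-B2, a transmembrane ligand of *EPHB4*, known from the boundary between arteries and veins, holds 1 of the motif matches shown. The gene lies on the minus strand of chromosome 13 from 107142093 to 107188010, and 1822 bases of its exons overlap a noncoding gene on the opposite strand, whose reads cannot be told apart from its own where strand was not used. It was at 1.73 and 1.37 RPKM in control libraries 1 and 2 and at 1.01 and 0.787 RPKM in knockdown libraries 1 and 2. The groups did not overlap, and both knockdown libraries lay below both controls, as for 2.89% of all tested genes. Its ratio was 0.582 within replicate 1 (0.445 to 0.759, from 154 and 92 reads) and 0.573 within replicate 2 (0.455 to 0.719, from 212 and 122 reads). The log2(RPKM + 0.5) change was -0.56 and -0.54, and 17 tested genes, *EFNB2* included, were lower by at least as much in both numbers. *EFNB1*, which encodes ephrin-B1, was at 3.02 and 2.86 RPKM in control and knockdown library 1 and at 1.33 and 1.45 RPKM in control and knockdown library 2. Its ratios of 0.946 (0.773 to 1.16) and 1.09 (0.873 to 1.37) lie on both sides of 1, and each interval includes 1. *EFNB2* was therefore at 0.571 of the RPKM of *EFNB1* in control library 1 and at 0.352 in knockdown library 1, and at 1.03 and 0.541 in the libraries numbered 2.

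**Figure D2:**
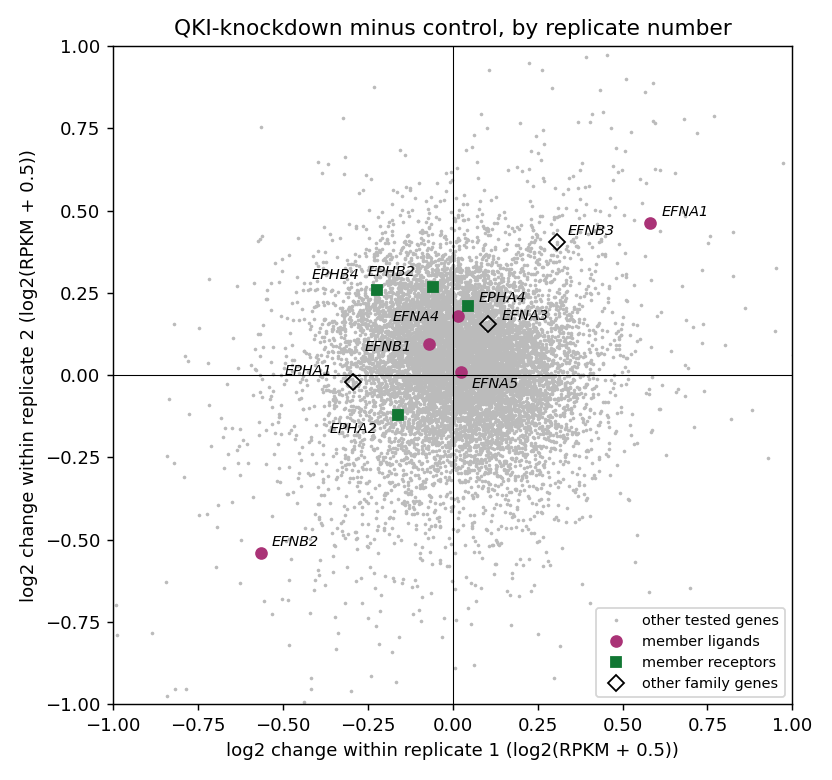
Change between QKI-knockdown and control on the log2(RPKM + 0.5) scale within replicate 1 (x axis) and replicate 2 (y axis), with 1 point per tested gene; 31 genes lie outside the axes. *EFNA1* (0.58, 0.46) and *EFNB2* (-0.56, -0.54) lie at the edge of the cloud in opposite corners, and the receptors lie within it.

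None of the 5 receptor genes was higher by as much as *EFNA1* in both numbers. *EPHA2*, on the minus strand of chromosome 1 from 16450832 to 16482564, encodes the main EphA receptor of epithelial cells and was at 32.3 and 28.8 RPKM in control and knockdown library 1 and at 21.1 and 19.4 RPKM in control and knockdown library 2. It was lower in the knockdown library of each number, with ratios of 0.893 (0.848 to 0.941) and 0.918 (0.874 to 0.964), but the groups overlap. *EFNA1* was at 0.257 of the RPKM of *EPHA2* in control library 1 and at 0.440 in knockdown library 1, and at 0.793 and 1.20 in the libraries numbered 2. *EPHA4*, which encodes a receptor for ligands of both classes, was at 0.557 and 0.591 RPKM in control and knockdown library 1 and at 0.369 and 0.505 RPKM in control and knockdown library 2, with ratios of 1.06 (0.857 to 1.31) and 1.37 (1.13 to 1.65).

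The abundant EphB receptors moved in different directions in the 2 numbers. *EPHB2*, which encodes a receptor of ephrin-B ligands and holds 2 motif matches, was at 16.1 and 15.4 RPKM in control and knockdown library 1 and at 8.89 and 10.8 RPKM in control and knockdown library 2, with ratios of 0.960 (0.910 to 1.01) and 1.21 (1.15 to 1.28). *EPHB4*, which encodes the receptor of ephrin-B2, went from 16.7 to 14.2 RPKM within replicate 1 and from 11.3 to 13.6 RPKM within replicate 2, with ratios of 0.852 (0.808 to 0.898) and 1.20 (1.15 to 1.26). For *EPHB4* each interval excludes 1, on opposite sides. The mean log2 change of *EPHB4*, 0.02, thus stands for a difference of -0.22 in replicate 1 and 0.26 in replicate 2. *EPHB3*, which encodes another EphB receptor, had between 33 and 47 reads per library, at 0.364 and 0.439 RPKM in control and knockdown library 1 and 0.183 and 0.232 RPKM in control and knockdown library 2, and its ratios of 1.21 (0.769 to 1.90) and 1.27 (0.784 to 2.06) allow a change in either direction. With a mean of 0.304 RPKM it was the only gene of the 10 under the limit of 0.5 RPKM for the fits across genes.

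**Figure D3:**
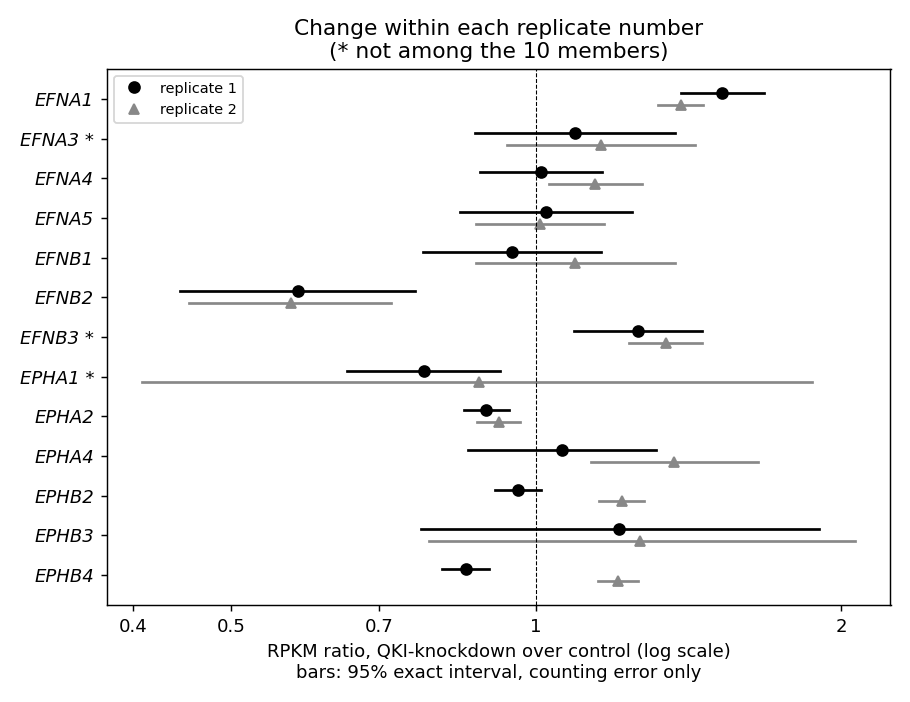
RPKM ratio of QKI-knockdown to control (x axis, log scale) within replicate 1 (black circles) and replicate 2 (grey triangles) for the 10 genes and for *EFNA3*, *EFNB3* and *EPHA1*, with 95% exact intervals for counting error. For *EFNA1*, *EFNB2*, *EFNB3* and *EPHA2* both intervals lie on the same side of 1, while those of *EPHB4* lie on opposite sides. The intervals leave out the spread between libraries and are not a test of the knockdown.

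Counted over the 10 genes, 5 were higher in the knockdown library of both numbers (*EFNA1*, *EFNA4*, *EFNA5*, *EPHA4* and *EPHB3*), 2 were lower in both (*EFNB2* and *EPHA2*) and 3 changed sign (*EFNB1*, *EPHB2* and *EPHB4*). Of all tested genes, 31.7% were higher and 16.6% lower within both numbers. The median log2 change of the 9 tested genes was 0.02, and that of all tested genes 0.03. Since these genes were chosen with this contrast known, nothing is read from those counts.

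Of the 12 other ephrin and Eph genes, 9 stayed below 0.5 RPKM in every library, and the other 3 were tested. *EFNB3*, which encodes the ligand ephrin-B3, was at 5.18 and 6.53 RPKM in control and knockdown library 1 and at 9.0 and 12.1 RPKM in control and knockdown library 2. Of the tested ligands and receptors it came nearest to *EFNA1* in the direction and size of its difference, with ratios of 1.26 (1.09 to 1.46) and 1.34 (1.24 to 1.46). Its log2 change of 0.36 did not pass limma's test over all genes (adjusted p = 1.00; adjusted p = 0.267 with the replicate block), and 89 tested genes, *EFNB3* included, were higher by at least as much in both numbers. *EFNA3*, which encodes ephrin-A3, was at 1.97 and 2.16 RPKM in control and knockdown library 1 and at 1.26 and 1.46 RPKM in control and knockdown library 2, a log2 change of 0.13 (limma adjusted p = 1.00). It shares 853 bases of exon with *EFNA4-EFNA3*. *EPHA1*, which encodes an EphA receptor of epithelial cells, was at 2.18 RPKM in control library 1 against 1.69 RPKM in its knockdown counterpart. In replicate 2 it had 17 and 15 reads, which gave 0.0712 and 0.0626 RPKM. Its log2 change was -0.16 (limma adjusted p = 1.00).

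Summed over the family, class A ligand mRNA was higher in the knockdown library of each number, from 19.3 to 24.3 RPKM in replicate 1 and from 26.6 to 34.4 RPKM in replicate 2, while class A receptor mRNA went from 35.4 to 31.2 RPKM and from 21.6 to 20.0 RPKM. *EFNA1* made up 43.1% of the class A ligand RPKM in control library 1 and 52.2% in knockdown library 1, and 62.8% and 67.6% in the libraries numbered 2. Most of the class A ligand rise is that of *EFNA1*, from 8.32 to 12.7 and from 16.7 to 23.2 RPKM. *EFNA1* was taken up for this rise, so the sum says little of the class as a whole. *EPHA2*, at 32.3 and 21.1 RPKM in control libraries 1 and 2, made up nearly all of the class A receptor sum. Class B ligand mRNA went from 9.94 to 10.4 RPKM in replicate 1 and from 11.7 to 14.3 RPKM in replicate 2. Within that sum *EFNB2* went from 17.4% to 9.67% and from 11.7% to 5.50%, and *EFNB3* from 52.2% to 62.8% and from 76.9% to 84.3%. Class B receptor mRNA, at 33.1 and 30.1 RPKM in replicate 1 and 20.3 and 24.6 RPKM in replicate 2, had no common direction.

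**Figure D4:**
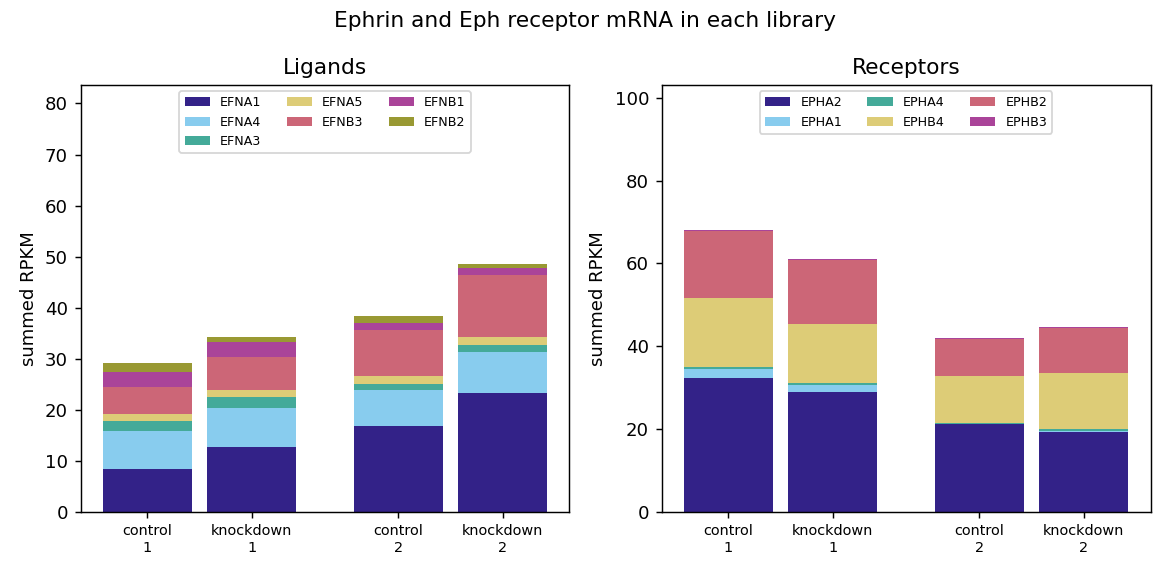
Summed RPKM (y axis) of the ligand genes (left) and the receptor genes (right) in each library, stacked by gene, with control and QKI-knockdown side by side for each replicate number; family genes under 0.5 RPKM in all libraries except *EPHB3* are left out. The *EFNA1* part grows from control to knockdown in both numbers, from 8.32 to 12.7 and from 16.7 to 23.2 RPKM, while the receptor total goes down in replicate 1 and up in replicate 2.

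Downstream of the receptors and ligands, 47 genes of adaptors, exchange factors, GTPases, kinases, phosphatases and PDZ proteins were listed from their textbook roles. Limma called 0 of the 43 that could be tested, without or with the replicate block, as did voom with the block, against 0 calls (0%) and 101 calls (0.854%, made up of 0.49% higher and 0.364% lower) of all tested genes; without a block 13 of all tested genes had an unadjusted p under 0.05. The median log2 change of the 43 was 0.02, beside 0.03 for all tested genes. Of the 43, 24 (55.8%) were above 0, beside 62.0% of all tested genes. *NGEF*, which encodes ephexin, an exchange factor for RHOA that EphA receptors activate, had the largest difference of the list. It was at 1.32 and 0.928 RPKM in control and knockdown library 1 and at 0.747 and 0.351 RPKM in control and knockdown library 2, a log2 change of -0.45 (limma adjusted p = 1.00; adjusted p = 0.252 with the replicate block). By voom with the block the log2 change was -0.78 (adjusted p = 0.0735), with a pseudocount of 0.1 it was -0.69, and without 1 library it ranged from -0.82 (without knockdown library 1) to -0.08 (without knockdown library 2). *PTPN1*, which encodes a tyrosine phosphatase, had a log2 change of 0.24, *NCK2*, which encodes an adaptor that binds phosphorylated ephrin-B, one of -0.23, and *GRB10*, which encodes a receptor adaptor, one of 0.18, and none of them passed the test either. *RHOA* was between 163 and 171 RPKM in all 4 libraries, and *ADAM10*, which encodes a protease that sheds ephrins, was between 20.0 and 28.6 RPKM.

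The difference between the replicate numbers was not used to choose the genes. It was tested with limma with the group as a covariate, replicate 2 against replicate 1. Each number has 1 control and 1 knockdown library, so the p-values measure how alike the difference was in the 2 groups. They do not measure the spread between cultures or runs. Whether the number stands for a run or a read length is not stated in the sources used here. *EFNA1* was higher in replicate 2 (log2 difference 0.91, SE 0.12, limma adjusted p = 3.97e-13). *EFNB1* (log2 difference -0.86), *EPHB2* (-0.66), *EPHA2* (-0.58) and *EPHB4* (-0.31) were lower in replicate 2, with limma adjusted p between 4.17e-08 and 0.0183. Thus 1 of the 9 tested genes was called higher and 4 lower in replicate 2, beside 35.2% and 35.7% of all tested genes. *EFNA4*, *EFNA5*, *EFNB2* and *EPHA4* did not pass, with limma adjusted p between 0.168 and 0.963. Outside the 10, *EFNB3* was higher in replicate 2 (0.79, limma adjusted p = 4.66e-09), *EFNA3* lower (-0.46, limma adjusted p = 0.00459), and *EPHA1* lower (-2.10, limma adjusted p = 1.93e-35). The summed RPKM of the epithelial markers moved with the number too, from 739 and 697 in the libraries numbered 1 to 225 and 271 in those numbered 2, as did that of the fibroblast markers, from 58.6 and 61.5 to 29.0 and 41.2. *COL1A1* carried the latter, from 51.5 and 54.1 to 18.6 and 29.5 RPKM, while *PDGFRB* went the other way, from 7.11 and 7.39 to 10.3 and 11.8 RPKM. The keratin genes *KRT7*, *KRT8*, *KRT17* and *KRT18* made up nearly all of the epithelial sum. *KRT7* went from 264 and 233 to 20.7 and 23.8 RPKM. *CDH1* went the other way, from 0.0267 and 0.0260 to 0.129 and 0.181 RPKM, and *EPCAM* had no common direction. The part of these markers in the differences between the numbers was not tested.

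The genes whose pattern over the 4 libraries lay nearest to that of *EFNA1* were *ADAMTS12*, *GNG4*, *SDC4*, *ADAMTS3* and *C4orf49*. Likeness was the Euclidean distance between centered log2(RPKM + 0.5) values, among 11009 other genes whose mean reached 1 RPKM, and was 0.101 for *ADAMTS12* and 0.166 for *C4orf49*. *ADAMTS12*, which encodes a secreted metalloprotease, was at 4.95 and 6.90 RPKM in control and knockdown library 1 and at 9.83 and 13.6 RPKM in control and knockdown library 2. *SDC4*, which encodes the proteoglycan syndecan-4, was at 95.5 and 129 RPKM in control and knockdown library 1 and at 173 and 222 RPKM in control and knockdown library 2. All 5 were higher in the knockdown library of both numbers and higher in replicate 2 in both groups. These directions follow from choosing the genes by their likeness to *EFNA1*, so nothing is read from them.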

How the data were processed

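Single-end reads came from an Illumina GAII, in runs at 2 read lengths. The sources used here do not say whether the replicate numbers stand for these runs, so number and read length cannot be told apart. The authors aligned them to hg19, the build in the submitters' processing notes, and to splice junctions of protein-coding genes, allowing 3 mismatches, with a Bowtie version that the sources used here do not state. The authors deposited a table of RPKM values per library, and a gene missing from a table was given 0. Library totals and whole reads were recovered from the spacing of the values for 100% of them (relative tolerance 1e-10). Annotation and sequence were GENCODE lifted to hg19 by its makers.

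log2(RPKM + 0.5) was compared by limma (3.58.1, R 4.3.3; trended variance) over the 11829 genes whose mean reached 0.5 RPKM, two-sided, with Benjamini-Hochberg adjustment and a threshold of 0.05. The fit had no block. Alternatives were the replicate number as a block, other limits, pseudocounts, centering, voom on recovered reads and leaving out a library. The fits were also run on simulated reads, with either no replicate difference or one that was the same in both groups. These settings are simpler than the data, so that run does not vouch for the calls made here. Other steps ran in Python 3.11.15 (pandas 2.3.3, numpy 2.4.6, scipy 1.17.1, matplotlib 3.10.9).

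The genes and lists were chosen with earlier results of these data known. Named were *QKI*, the 10 genes, other family genes reaching 0.5 RPKM in any library, called signalling genes or else the 4 with the largest log2 change, the 5 genes nearest to *EFNA1* and its listed neighbors. *EFNA4-EFNA3*, *RHOA* and *ADAM10* were named after their values were seen.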

Additional observations from a re-analysis of the deposited data

How the results depend on the processing

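The replicate number decided how many genes were called. Fitted without it, limma gave 0 calls in either direction. With the replicate block it called 58 higher and 43 lower, with the block and median centering 48 and 66, and with voom and the block 69 and 68. Same-numbered libraries deviated together (correlation of 0.953 across genes), but with 2 numbers and no shared culture or day in the labels this is not a known pairing. Without 1 library in turn, between 0 and 2 genes were called higher and between 0 and 2 lower. The log2 change of *EFNA1* then ranged from 0.04 without control replicate 1 to 1.01 without control replicate 2, since the numbers are no longer balanced, and the median over the tested members from -0.26 to 0.15. With all 4 libraries *EFNA1* stayed between 0.49 and 0.54 over 9 alternatives. *EFNB2* stayed below 0, from -0.79 to -0.43 over its 9 alternatives and from -0.68 to -0.43 without 1 library. *EFNA4*, *PTPN1*, *NGEF* and *QKI* also kept their sign without any 1 library. *EFNA5*, *EFNB1*, *EPHA2* (-0.44 to 0.16), *EPHA4*, *EPHB2* (-0.30 to 0.51), *EPHB4*, *EFNA3*, *EFNB3* (-0.06 to 0.77), *EPHA1*, *NCK2* and *GRB10* did not. *EFNA5*, *EFNB1* and *EPHB4*, with changes near 0, turned below 0 in the 2 fits with median centering. Counts between the replicate numbers kept within 1.5 times under every alternative run. Depth limits *EPHB3*, with 33 to 47 reads per library, *EPHA1* in replicate 2 and the 9 family genes under 0.5 RPKM.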
